A study of Mus musculus with 9 samples.

Results

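The 10 genes of the goblet cell mucus programme described here were followed across 9 mouse intestinal RNA libraries. They were taken by gene name from a table of 55468 genes and are Muc2, Clca1, Fcgbp, Zg16, Tff3, Retnlb, Spink4, Agr2, Atoh1 and Spdef, and each of the 10 names matched 1 entry. The study asked how diets lacking methionine, tryptophan and niacin alter gene expression in the intestine of mice that drink dextran sulfate sodium (DSS), a model of inflammatory bowel disease. RNA came from the intestinal tract, with no segment named, and each condition has 1 library. The labels do not say whether a library holds 1 animal or a pool, and they name no strain, age or sex.

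The library C is tissue from control mice on normal feed at day 34, and its label names no DSS. R received the normal diet and was taken at day 28. The library 1K had the methionine-deficient diet, 2K a diet without enough tryptophan and niacin, and 3K the diet deficient in all of methionine, tryptophan and niacin, up to day 28. The other libraries, taken at day 33, are RR on the normal diet throughout and 1KR, 2KR and 3KR, which returned from the respective deficient diets to normal diet after day 28. All 8 libraries other than C share DSS from day 18. C therefore differs from R and RR in both DSS and day, and these cannot be told apart.

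Goblet cells are secretory cells of the intestinal epithelium that release the mucus gel between the epithelium and gut microbes. The gel is built from the mucin MUC2, which is folded in the endoplasmic reticulum, glycosylated in the Golgi apparatus, stored in granules and unfolded on release, and it is joined by other secreted proteins. The transcription factor ATOH1 commits progenitors to the secretory lineages, and SPDEF acts in the maturation of goblet and Paneth cells. In bulk tissue, fewer goblet cells and less RNA per goblet cell cannot be told apart.

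Levels are given as FPKM, fragments per kilobase of transcript, relative to the library's fragments as the authors scaled them. The step between low FPKM values gave an estimated depth of 22.2 to 31.1 M fragments, except 14.3 M in 3KR. Whether the authors also scaled the libraries to each other was not tested. If they did, these numbers are not the mapped depth. Of the summed FPKM, 55.1% in 3KR and 19.2% to 31.9% in the other libraries came from genes that are not protein-coding. Several libraries carried markers of other tissues or gut segments. Pancreatic acinar genes, 14 of 14 at or above 1 FPKM in both 2K and 3K, took 6.1% of all FPKM in 2K and 8.61% in 3K, and no more than 0.00444% in any other library. Stomach genes took 2.38% in 2K, with 11 of 11 at or above 1 FPKM, while 3K had 0.00894% and the other libraries no more than 0.000363%. Liver genes held 4.58% in 2K, all 13 of them at or above 1 FPKM, and at most 0.0634% elsewhere. The colon list held 0.154% in 3KR, with 11 of 15 genes at or above 1 FPKM, against at most 0.0314% elsewhere. Car1 carried most of that share, and without it the list held 0.0354% in 3KR and 0.0314% in RR, the next highest. Of 11 colon genes kept in 3KR against RR, 7 were at least 2-fold higher and none lower. The distal colon genes Hoxd13 and Hoxb13 were at 0 and 0.159 FPKM in 3KR, and Hoxb13 was at most 0.136 FPKM in the other libraries. Hoxd13 was at 0.531 FPKM in 2K and 0.45 FPKM in 3K, and at most 0.03 FPKM elsewhere. Neutrophil genes held 0.285% in 3KR and at most 0.0302% elsewhere. Fabp6, the ileal bile acid-binding protein, was at 1946 FPKM in R and 3486 FPKM in C but at 2.9 FPKM in RR and 0.282 FPKM in 2K, so the ileal signal also varied among libraries. The duodenum list held 0.395% in 1K, 0.306% in 1KR, 0.247% in RR and 0.215% in both 2KR and 3K. It held 0.111% in 2K, 0.0323% in R, 0.0207% in C and 0.0173% in 3KR. Fabp1, at 2941 FPKM in 1K and 113 FPKM in R, carried most of the share in 1K. R and C thus differed from 1K and RR in segment markers too. The share of these markers in the differences described next was not tested. With 1 library a condition, it cannot be told apart from the diet.

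**Figure D1:**
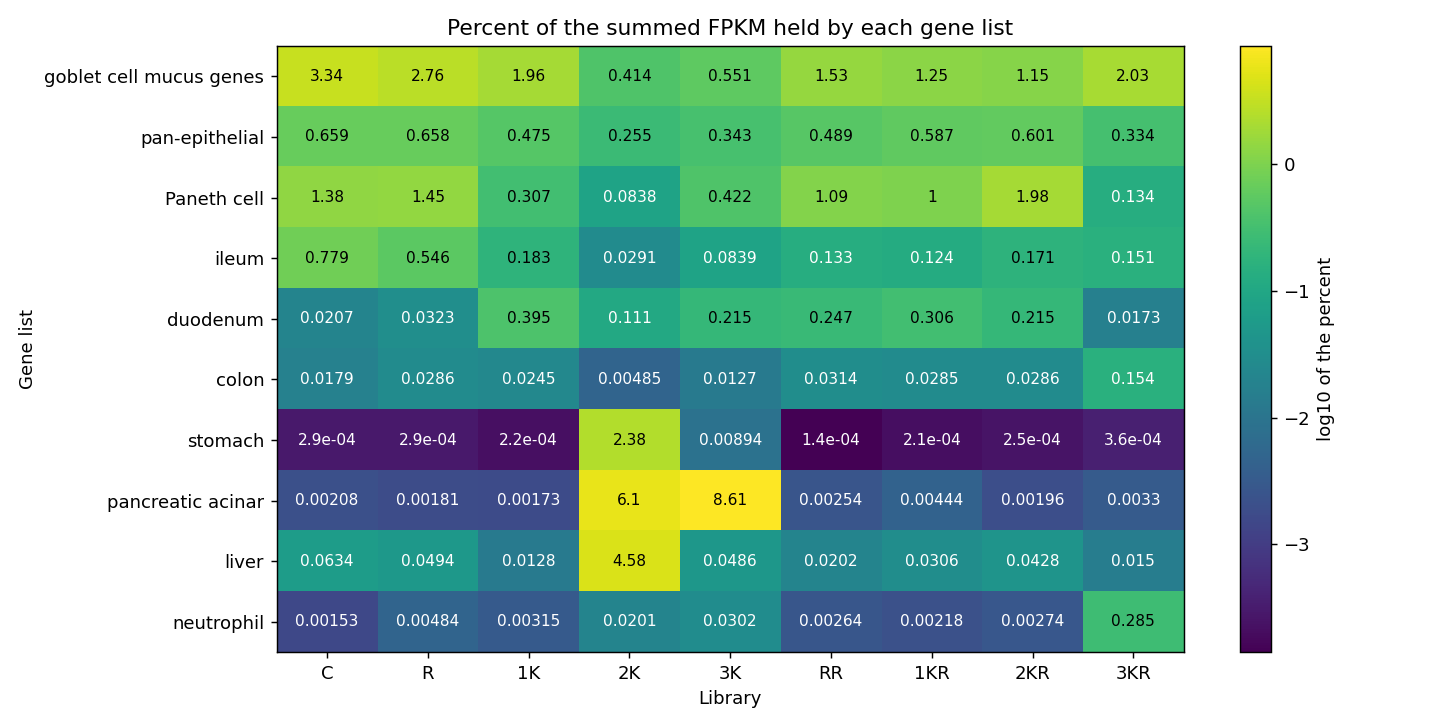
Percent of the summed FPKM of all genes held by each marker list (vertical axis) in each library (horizontal axis), coloured on a log10 scale. Acinar genes stand out in 2K and 3K, stomach and liver genes in 2K, and colon and neutrophil genes in 3KR, while the 10 goblet cell mucus genes are at their lowest share in 2K, at 0.414%.

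The 10 genes together made up 4.91% of the FPKM of protein-coding genes in C and 3.92% in R. They made up 2.57% in 1K, 0.512% in 2K and 0.698% in 3K. At day 33 the share was 2.24% in RR, 1.68% in 1KR, 1.65% in 2KR and 4.51% in 3KR. The lowest shares thus belong to both diets deficient in tryptophan and niacin before refeeding. On this scale 3KR had the highest share of the DSS libraries. Of the FPKM of all genes, coding or not, the 10 held 2.03% in 3KR, below the 2.76% in R. Muc2 alone made up 68.5% of the 10 genes' FPKM in 3KR and 47.7% in R. All of the 10 genes but Retnlb were above 0 in every library. Retnlb was above 0 in 5 of the 9.

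Muc2 (ENSMUSG00000025515, GRCm38 chr7:141690340-141754693, plus strand) encodes the gel-forming mucin. It was at 10886 FPKM in C, 7863 in R, 5892 in 1K, 765 in 2K and 1457 in 3K, and at 3452 in RR, 2015 in 1KR, 2538 in 2KR and 13510 FPKM in 3KR. By FPKM it ranked 1 among protein-coding genes in C and in R, 2 in 3KR, 29 in 3K and 82 in 2K. Its highest library, 3KR, stood 17.66-fold above its lowest, 2K, the widest range of the 9 genes detected in every library. The longest of 8 Muc2 transcripts in GENCODE M21 has 2926 bases, which is only part of the mucin's mRNA, so its level per length and its rank are uncertain. Whether its transcripts were used in different proportions between libraries, which would also enter the FPKM, was not tested.

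Fcgbp, Clca1 and Zg16 encode proteins secreted with MUC2. Fcgbp (ENSMUSG00000047730, chr7:28071236-28120862, plus strand), a large mucus component with von Willebrand domains, was at 1268 FPKM in C, 1198 in R, 1529 in 1K, 370 in 2K and 172 in 3K, and at 955 in RR, 763 in 1KR, 508 in 2KR and 683 FPKM in 3KR. Clca1 (ENSMUSG00000028255, chr3:145003817-145032776, minus strand), a metalloprotease that processes mucus, was at 1063 FPKM in C, 1362 in R, 757 in 1K, 179 in 2K and 107 in 3K, and at 540 in RR, 605 in 1KR, 451 in 2KR and 345 FPKM in 3KR. For both genes 2K and 3K were the lowest libraries, and 3KR, the highest for Muc2, lay below RR. Zg16 (ENSMUSG00000049350, chr7:127050156-127087328, minus strand), a lectin that binds the peptidoglycan of Gram-positive bacteria, was at 3331 FPKM in C, 3402 in R, 5013 in 1K, 1365 in 2K and 1199 in 3K, and at 3354 in RR, 3147 in 1KR, 2195 in 2KR and 2506 FPKM in 3KR. It had the narrowest range, 4.182-fold, and 5 of the 8 DSS libraries lay below C for it, against 7 or 8 for the other 8 genes detected throughout. Zg16 was first described in the zymogen granules of pancreatic acinar cells, and its 2 lowest libraries were those with the acinar markers. The part of acinar tissue in its level was not tested. Zg16 overlaps the annotated genes Gm22747 and Gm44939, and no source used here says whether fragments were counted by strand, so its level is uncertain to that extent.

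The upstream sequences of Muc2, Fcgbp and Atoh1 are shown because these genes stood among those furthest below R in 2K or 3K. RefSeq (GRCm38.p6) promoter entries matched 5 of the 10 genes, the other 2 being Agr2 and Spdef. Each sequence is the 250 bases before the RefSeq start, 5′ to 3′ on the gene's strand, and capitals mark the E-box CAGCTG or the sequence GATAA, searched on both strands. The stretches are chr7:141690090-141690339 for Muc2, chr7:28070986-28071235 for Fcgbp and chr6:64728875-64729124 for Atoh1, all on the plus strand.
Muc2: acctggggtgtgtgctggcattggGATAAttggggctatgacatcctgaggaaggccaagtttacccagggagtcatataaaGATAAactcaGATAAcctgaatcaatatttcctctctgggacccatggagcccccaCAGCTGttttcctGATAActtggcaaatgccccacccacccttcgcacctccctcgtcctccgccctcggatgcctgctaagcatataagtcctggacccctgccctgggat
Fcgbp: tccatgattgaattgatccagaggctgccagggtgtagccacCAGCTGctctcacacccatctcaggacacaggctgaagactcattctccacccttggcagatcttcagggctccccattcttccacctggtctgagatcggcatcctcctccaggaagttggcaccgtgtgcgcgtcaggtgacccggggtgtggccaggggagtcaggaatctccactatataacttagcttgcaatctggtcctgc
Atoh1: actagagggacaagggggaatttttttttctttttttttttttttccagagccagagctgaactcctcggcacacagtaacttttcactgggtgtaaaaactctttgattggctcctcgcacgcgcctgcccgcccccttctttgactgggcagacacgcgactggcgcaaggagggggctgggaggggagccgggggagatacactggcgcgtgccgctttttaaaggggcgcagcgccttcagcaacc
CAGCTG, an E-box of the kind bound by basic helix-loop-helix factors, begins at position -112 from the start of Muc2 and at -208 from that of Fcgbp. It occurs in 13% of 32851 promoters of the same length. GATAA, the core bound by GATA factors, occurs at 4 places in Muc2, beginning at -226, -168, -158 and -99, and in 22.6% of all promoters. It was added to the search after the Muc2 sequence had been seen. The search also covered CAGATG (14.4% of promoters), TTTATNG (9.81%) and TGTTTAC (3.17%), and found only TTTATNG, once, in Agr2, at -48, on the opposite strand. None of the 5 motifs was found in the windows of Atoh1 and Spdef. No peak, methylation or binding data bear on these matches.

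The genes of the small secreted proteins differed from each other. Tff3 (ENSMUSG00000024029, chr17:31125306-31129646, minus strand), a trefoil peptide of mucosal repair, was at 1900 FPKM in C, 1721 in R, 1927 in 1K, 307 in 2K and 246 in 3K, and at 1600 in RR, 1601 in 1KR, 1193 in 2KR and 1051 FPKM in 3KR. It had a plateau in the 5 libraries C, R, 1K, RR and 1KR, between 1600 and 1927 FPKM, and was lowest in 2K and 3K. Spink4 (ENSMUSG00000028415, chr4:40920052-40931395, plus strand), a small protein with a Kazal-type protease inhibitor domain, was at 1093 FPKM in C, 627 in R, 513 in 1K, 113 in 2K and 372 in 3K, and at 625 in RR, 546 in 1KR, 925 in 2KR and 1098 FPKM in 3KR. It was lowest in 2K, with 3K between 2K and the rest, whereas Tff3 was close in those libraries.

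Retnlb (ENSMUSG00000022650, chr16:48816856-48818892, plus strand) encodes RELM-beta, a bactericidal goblet cell protein known mainly from the colon and known to be induced by type 2 cytokines. It was listed at 0 in C, R, RR and 1KR. It was at 0.249 FPKM in 1K, 0.237 in 2K and 0.177 FPKM in 2KR, each about 3 fragments by the estimate from the FPKM step. It was at 9.08 FPKM in 3K, about 131 fragments, and at 115 FPKM in 3KR, about 886 fragments. The methionine-, tryptophan- and niacin-deficient diet is thus the only one of the diets with more than 1 FPKM of Retnlb, before and after refeeding, with 1 library at each time. In the same 3KR library the colon gene Car1, a carbonic anhydrase, was at 1151 FPKM, against at most 2.56 FPKM elsewhere, the highest of those being 3K. The neutrophil gene S100a8 was at 1273 FPKM in 3KR and at 73.4 FPKM in 3K, the next highest. The type 2 cytokine genes Il13 and Il4 were at most at 0.068 and 0.584 FPKM in any library, and Il22 at most at 0.086 FPKM. Il1rl1, the IL-33 receptor, was at 47.9 FPKM in 3KR and at 4.05 to 12.2 FPKM elsewhere. The part of colon tissue or of neutrophils in the Retnlb level was not tested.

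Agr2 (ENSMUSG00000020581, chr12:35992907-36004087, plus strand) encodes a protein disulfide isomerase of the endoplasmic reticulum that is needed for MUC2 assembly. It was at 398 FPKM in C, 292 in R, 186 in 1K, 46 in 2K and 69.7 in 3K, and at 228 in RR, 169 in 1KR, 234 in 2KR and 376 FPKM in 3KR. All 8 DSS libraries were below C for Agr2, and 3KR was the closest to it.

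The regulators Atoh1 and Spdef parted from each other in 2K. Atoh1 (ENSMUSG00000073043, chr6:64729125-64731245, plus strand, a single exon of 2121 bases) was at 15.1 FPKM in C, 13.9 in R, 11.3 in 1K, 1.18 in 2K and 1.03 in 3K, and at 9.54 in RR, 8.6 in 1KR, 10.9 in 2KR and 15.2 FPKM in 3KR. Both low values stand on about 58 fragments each, and the other libraries on about 457 to 852. Spdef (ENSMUSG00000024215, chr17:27714352-27728955, minus strand), an ETS factor, was at 19.4 FPKM in C, 13.4 in R, 16.6 in 1K, 11.4 in 2K and 4.39 in 3K, and at 13.6 in RR, 9.97 in 1KR, 12.5 in 2KR and 20.6 FPKM in 3KR. Its level in 2K lay inside the range of the other libraries and only 3K stood below them. The Spdef level was 9.63-fold the Atoh1 level in 2K and 4.25-fold in 3K, against 0.96- to 1.47-fold elsewhere. Spdef is also known in gastric mucous cells, and 2K is the library with stomach markers. Their part in its Spdef level was not tested.

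**Figure D2:**
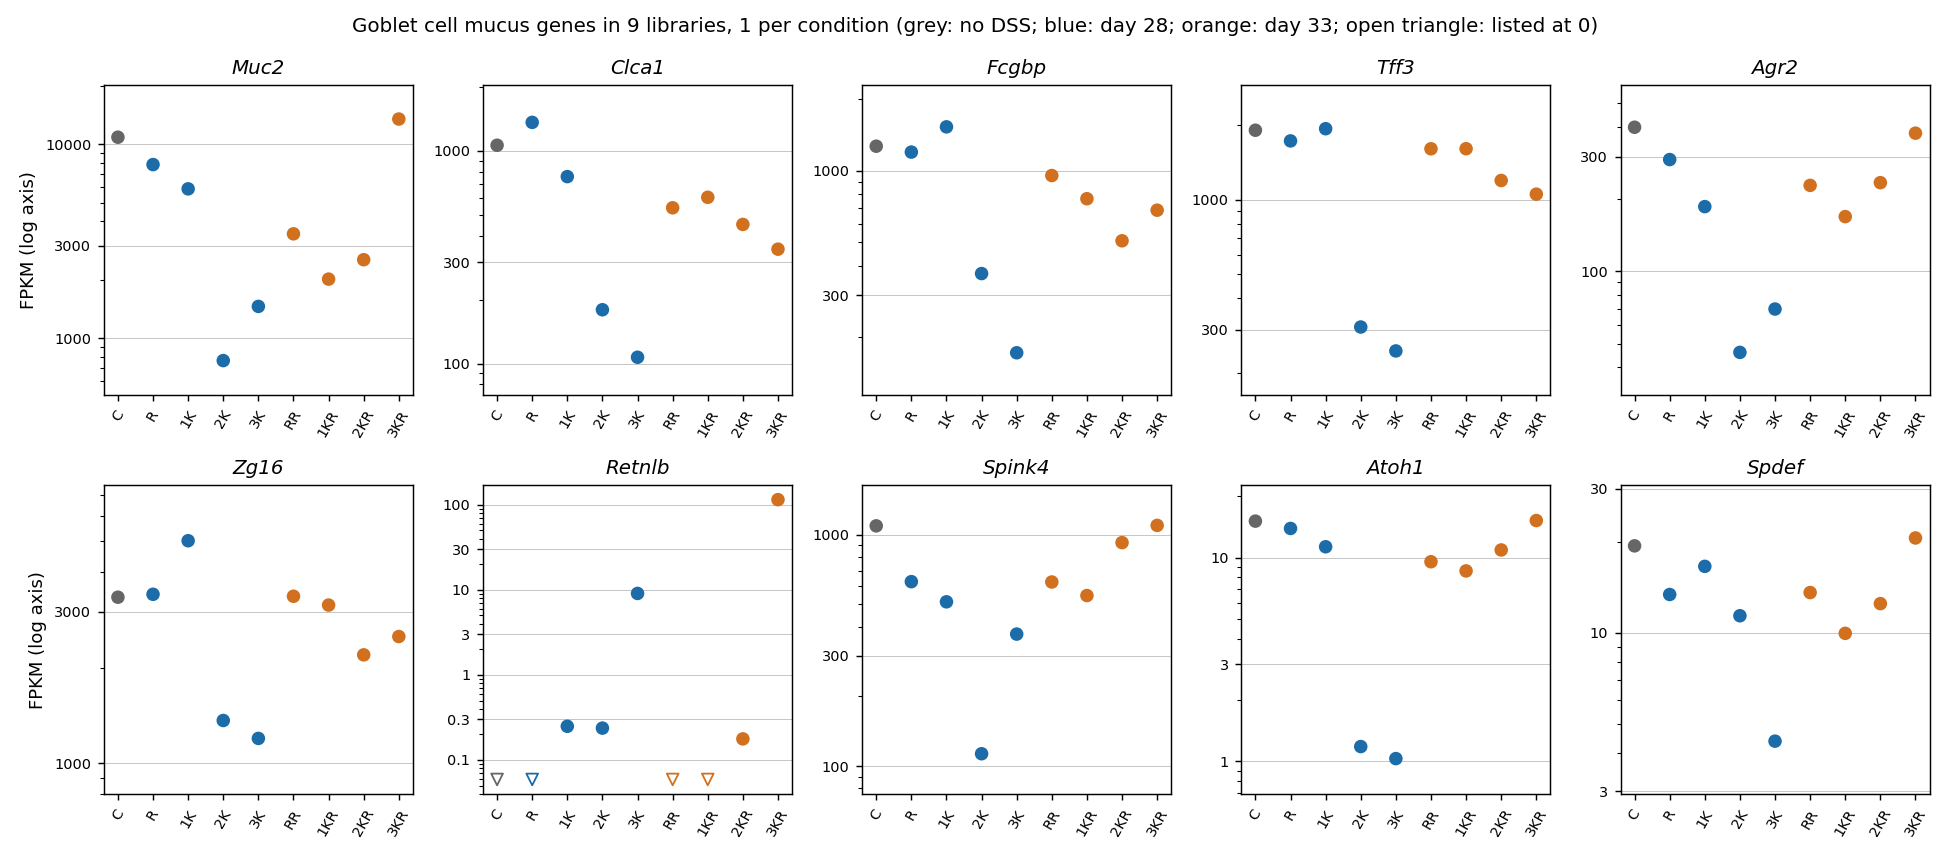
FPKM on a log axis (vertical) of each goblet cell mucus gene in each library (horizontal), 1 point per library with no error bar because each condition has 1 library. The libraries 2K and 3K are the lowest pair for 8 of the genes, Spdef is low in 3K only, and Retnlb reaches 115 FPKM in 3KR.

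Pairs of libraries were compared as differences in log2(FPKM + 0.5), a scale that understates changes of low genes. A gene was kept where it reached 1 FPKM in at least 1 of the pair, and a difference of at least 2-fold was counted. With 1 library a side these are descriptions of libraries without a replicate check. Medians of the mucus genes are over all 10, and folds are ratios of FPKM. Comparisons that share R, RR, 2K or another library are not independent of each other.

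DSS on the normal diet was compared with C at both days. In R none of the 10 genes was 2-fold lower or higher than in C, where 3.22% of all genes were lower and 4.43% higher, and the median log2 difference of the mucus genes was -0.13 against 0.01 for all genes. In RR only Muc2 was at least 2-fold lower, 3.15-fold, with a background of 5.81%, and none was higher, with a background of 6.71%. The median log2 difference was -0.56 for the mucus genes and -0.02 for all genes. Clca1 was 1.97-fold lower, just inside the threshold, and as shares of protein-coding FPKM 4 genes were at least 2-fold lower. Between the days, RR against R, Muc2 was 2.28-fold and Clca1 2.52-fold lower, which makes 2 of 10 lower against 5.29% of all genes, and none was higher against 5.42%. The median log2 difference was -0.22, against -0.05 for all genes. The differences of Tff3, Zg16, Spink4 and Spdef between RR and R were within 1.08-fold.

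With methionine deficiency alone at day 28, no gene was 2-fold lower than in R on the FPKM scale, where 8.63% of all genes were, and none was 2-fold higher, where 7.17% were. The median log2 difference was -0.06, against 0.03 for all genes. Within that median the genes went both ways. Clca1 was 1.8-fold and Agr2 1.57-fold lower in 1K than in R, and Zg16 was 1.47-fold and Fcgbp 1.28-fold higher. As shares of protein-coding FPKM, 2 genes were at least 2-fold lower and the median was -0.60. The median ran from that value, through -0.29 without Retnlb and -0.26 with median-of-ratios scaling, to 0.01 relative to the list of general epithelial genes and 0.16 without Zg16, Agr2 and Spink4, so its size and sign depend on the scale and on the genes taken.

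Without tryptophan and niacin, most of the group was far lower at day 28. In 2K 8 of the 10 genes were at least 2-fold lower than in R, all but Spdef and Retnlb, and none was higher. Across all genes 14.1% were lower and 14.7% higher. The median log2 difference was -2.48 for the mucus genes and 0.02 for all genes. Atoh1 was 11.8-fold, Muc2 10.3-fold, Clca1 7.59-fold, Agr2 6.34-fold, Tff3 5.61-fold and Spink4 5.54-fold lower, and the 2 smallest of the 8 were Fcgbp at 3.23-fold and Zg16 at 2.49-fold. Spdef was 1.18-fold lower. Several lists of other gut cells were also low in 2K, beside the same backgrounds. At least 2-fold lower were 9 of 9 crypt stem and cycling genes (median -2.28) and 7 of 8 smooth muscle genes (-1.38). So were 7 of 12 enterocyte genes (-1.10), with 3 higher. Of enteroendocrine genes 5 of 10 were higher, and of tuft cell genes 2 of 7, with 0 lower in both. In 3K, 4 of 9 crypt, 0 of 8 muscle and 5 of 12 enterocyte genes were lower, against 13.4% of all genes.

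Against the same R, the 3K library was also low. Here 8 of 10 genes were at least 2-fold lower, all but Spink4 and Retnlb, and Retnlb was higher. The backgrounds were 13.4% lower and 11.6% higher, and the median log2 difference was -2.24 against 0.00 for all genes. Atoh1 was 13.5-fold, Clca1 12.7-fold, Tff3 7-fold and Fcgbp 6.96-fold lower, Muc2 5.39-fold, Agr2 4.19-fold, Spdef 3.05-fold and Zg16 2.84-fold lower, and Spink4 1.68-fold lower. The order of the genes thus differed between the 2 libraries, with Muc2, Agr2 and Spink4 lower in 2K and Clca1, Fcgbp and Spdef lower in 3K. The general epithelial genes were also lower in both, with a median log2 difference of -0.83 in 2K and -0.68 in 3K over 10 genes. Taken relative to that epithelial list the mucus genes' median was -1.75 in 2K and -1.65 in 3K, and 6 of the 10 were at least 2-fold lower in each. The list itself was uneven in 2K, with 3 of its 10 genes at least 2-fold lower than in R and 1 higher, against 14.1% and 14.7% of all genes. Vil1 was at 151 FPKM in 2K and 671 in R, and Krt18 at 222 and 80.1 FPKM. The part of other tissues in the level of this list was not tested.

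**Figure D3:**
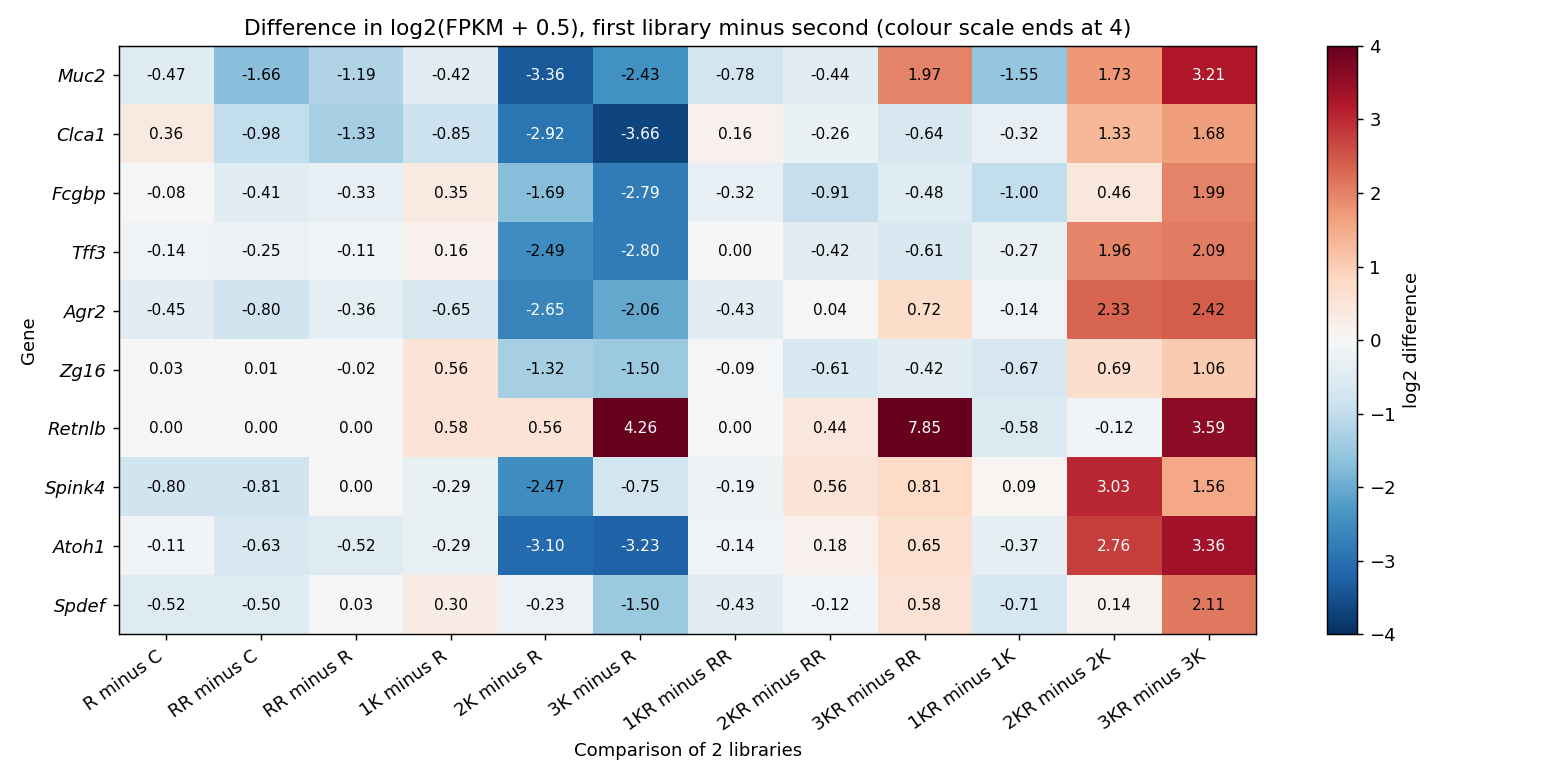
Difference in log2(FPKM + 0.5) for each goblet cell mucus gene (vertical axis) in each comparison of 2 libraries (horizontal axis), blue where the first library is lower and red where it is higher. The columns 2K minus R and 3K minus R are blue except for Retnlb, 3KR minus 3K is red throughout, and Spdef is near 0 in both comparisons that involve 2K.

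After refeeding, the libraries 1KR and 2KR lay close to RR. In 1KR no gene was 2-fold lower, with a background of 3.51%, or higher, with 2.47%, and the median log2 difference from RR was -0.17, against -0.01 for all genes. In 2KR no gene was 2-fold lower, with a background of 3.67%, or higher, with 2.67%, and the median was -0.19, against -0.04. Apart from Retnlb, the widest difference in 2KR was that of Fcgbp, 1.88-fold lower than in RR, and in 1KR that of Muc2, 1.71-fold lower.

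The refed 3KR library departed from RR in both directions. Muc2, 3.91-fold higher, and Retnlb, listed at 0 in RR, were the 2 genes at least 2-fold higher, against 11.4% of all genes, and none was 2-fold lower, against 9.73%. The median log2 difference was 0.61 for the mucus genes and 0.03 for all genes. Spink4, Agr2, Atoh1 and Spdef were 1.51- to 1.76-fold higher, and Clca1, Tff3, Fcgbp and Zg16 were 1.34- to 1.56-fold lower. The Paneth cell list, another secretory lineage, was lower in 3KR than in RR for 9 of the 9 genes kept, with a median log2 difference of -3.40.

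Set against the library of the same diet before refeeding, 1KR was lower than 1K for Muc2, 2.92-fold, and Fcgbp, 2-fold. These 2 of 10 compare with 7.79% of all genes lower, and none was higher, against 6.57%. Fcgbp lay at the threshold, and 1 gene was lower as shares of protein-coding FPKM or with median-of-ratios scaling. The median log2 difference was -0.48, against -0.09 for all genes. In 2KR 6 genes were at least 2-fold higher than in 2K, against 13.5% of all genes, and none was lower, against 19%. Atoh1 was 9.21-fold, Spink4 8.18-fold, Agr2 5.09-fold, Tff3 3.89-fold, Muc2 3.32-fold and Clca1 2.51-fold higher. The median was 1.53, against -0.10, and relative to the epithelial list it was 0.81. In 3KR all 10 genes were at least 2-fold higher than in 3K, against 13.3% of all genes, with none lower, against 11.7%. The median was 2.10, against 0.01 for all genes. The folds ran from 2.09 for Zg16 to 14.7 for Atoh1, with Retnlb at 12.6-fold and Muc2 at 9.27-fold. These 3 comparisons set day 33 beside day 28, as RR against R does, so refeeding and day cannot be told apart within them.

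The tests came from a single model across all genes. It was fitted with limma to the 8 DSS libraries, with a term for day and, within each day, terms for methionine deficiency and for tryptophan and niacin deficiency. It takes both deficiencies as additive on the log2 scale, and the departure from additivity supplies its 2 residual degrees of freedom, so the standard errors do not measure the spread between animals. For tryptophan and niacin deficiency at day 28, 0 of the 10 genes passed an adjusted p of 0.05 (limma, Benjamini-Hochberg over 17577 genes), where 0.188% of all genes did, and 7 of the 10 were under 0.05 before adjustment, as were 19.2% of all genes. Atoh1 had the smallest p of the 10, with a log2 difference of -3.02 (SE 0.27, limma adjusted p = 0.0788). Clca1 followed at -2.87 (SE 0.32, limma adjusted p = 0.103) and Tff3 at -2.73 (SE 0.37, limma adjusted p = 0.109). Muc2 was at -2.69 with a wider error (SE 0.95, limma adjusted p = 0.244), and Spdef at -1.02 (SE 0.51, limma adjusted p = 0.353). All estimates but that of Retnlb were below 0, which makes 9 of 10. At day 28 this term sets 2K and 3K, the libraries with the acinar markers, against R and 1K. Diet and tissue content therefore cannot be told apart in it.

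The other terms gave 0 calls in limma both for the mucus genes and for all genes. For methionine deficiency at day 28 0% of all genes passed, and 0 of the 10 mucus genes were under 0.05 before adjustment, against 3.2% of all genes. The same counts, 0% and 0 of 10, held for both deficiencies after refeeding, where 1.24% of all genes were under 0.05 before adjustment for methionine and 2.21% for tryptophan and niacin. For day 33 against day 28 on the normal diet 0% of all genes passed, and 1 of the 10, Clca1, was under 0.05 before adjustment, against 3.19% of all genes. The tryptophan and niacin terms at the 2 days were also compared directly. Atoh1 differed by -3.51 on the log2 scale (SE 0.38, limma adjusted p = 0.207), and 0 of the 10 passed, against 26 of 17577 genes. Before adjustment 6 of the 10 were under 0.05, against 9.03% of all genes. Among the 22 lists of other genes the only calls for a diet term were the 14 pancreatic acinar genes, all higher with tryptophan and niacin deficiency at day 28. The 33 genes called for that term became 0 when 2K, 3K or 3KR was left out, and then 4, 4 and 6 of the 10 mucus genes were under 0.05 before adjustment, against 11.4%, 13% and 15% of all genes. Each of these fits also has fewer residual degrees of freedom. The lost calls therefore cannot separate the influence of a library from a weaker test.

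Proportions within the group also moved. Muc2 made up 54.5% of the summed FPKM of the 10 genes in C, 47.7% in R, 37.2% in 1K, 24.2% in 2K and 40.1% in 3K. It made up 32% in RR, 22.7% in 1KR, 31.5% in 2KR and 68.5% in 3KR. The Muc2 level was 12.8-fold the Tff3 level in 3KR and 1.26-fold in 1KR, with C at 5.73-fold and R at 4.57-fold. Zg16 relative to Tff3 was 4.45 in 2K and 4.87 in 3K, against 1.75 to 2.6 elsewhere. The libraries 2K and 3K hold the acinar markers, and the part of acinar tissue in this ratio was not tested. The high Muc2 proportion in 3KR coincides with the colon markers, and their part in it was not tested.

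**Figure D4:**
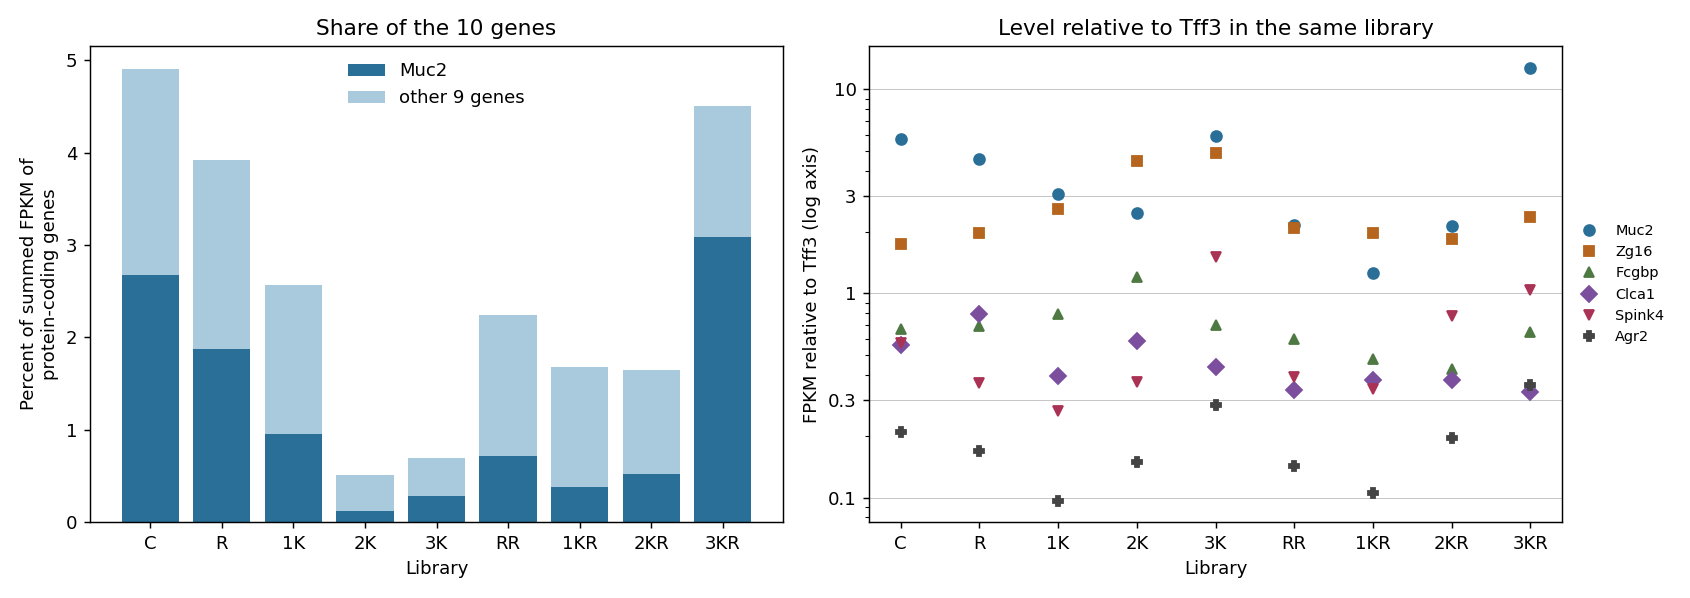
Left, percent of the summed FPKM of protein-coding genes held by the 10 genes in each library, with Muc2 dark and the other 9 light; right, FPKM of 6 of the genes divided by that of Tff3 in the same library, on a log axis. The 10 genes reach 4.91% in C and 0.512% in 2K, and Muc2 relative to Tff3 is highest in 3KR, at 12.8.

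Across the 9 libraries the 36 pairs of genes other than Retnlb had a Pearson r of log2(FPKM + 0.5) between 0.47, for Fcgbp with Spink4, and 0.96, for Fcgbp with Zg16 and Agr2 with Atoh1, with a median of 0.79. Muc2 with Tff3 was at 0.70. These r values describe 9 libraries that share the FPKM scaling and the low pair 2K and 3K. Without that pair, over 7 libraries, r was 0.94 for Muc2 with Atoh1, 0.90 for Muc2 with Spdef and 0.84 for Muc2 with Agr2. In the same 7 libraries r was 0.91 for Fcgbp with Zg16, 0.87 for Fcgbp with Tff3 and 0.84 for Tff3 with Zg16, and it was -0.00 for Muc2 with Tff3. Of the remaining genes, Clca1 was at 0.82 with Tff3, 0.75 with Fcgbp and 0.23 with Muc2, and Spink4 was at 0.84 with Agr2, 0.52 with Muc2 and -0.54 with Tff3. These pairs were picked after the values were seen.

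Over the 9621 genes whose mean reached 5 FPKM, the profile most like the mean of the 10 was that of Tpsg1, a tryptase (r = 0.994 over 9 libraries, 0.951 without 2K and 3K). Emsy (0.991), Rnf32 (0.989), Pik3c2b (0.986), Slc5a6 (0.983), Gtf2i (0.980), Hepacam2 (0.979), Rims2 (0.979), Slc35b4 (0.977) and Trim2 (0.976) came next. Trim2 dropped to 0.792 without 2K and 3K, whereas Hepacam2 kept 0.935. For Muc2 alone the nearest were Hmgcs1, an enzyme of cholesterol synthesis (0.971), Tia1 (0.970), Lhfpl2 (0.970), Tln1 (0.968) and Ttyh3 (0.964).

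A list of 24 other goblet cell genes was further below R in 3K than in 2K, a difference that has no test with 1 library each. In 2K 7 were at least 2-fold lower than in R and 5 higher, where 14.1% and 14.7% of all genes were, with a median log2 difference of -0.27 against 0.02. In 3K 17 were lower and 2 higher, where 13.4% and 11.6% of all genes were, with a median of -1.61 against 0.00. Guca2a, the hormone guanylin, was at 316 FPKM in R, 20.3 in 2K and 149 FPKM in 3K, and Scin, an actin-severing protein, at 52, 3.17 and 15.8 FPKM. Rep15, which binds the GTPase RAB15, was at 13.7 FPKM in R, 29 in 2K and 0.82 FPKM in 3K. Hepacam2 was lower in both, at 37.6 FPKM in R, 6.41 in 2K and 4.08 FPKM in 3K. Klk1, a kallikrein that the pancreas also makes, was higher in both, at 60.5 FPKM in R, 883 in 2K and 1033 FPKM in 3K. Pla2g10, at 14.1 FPKM in 2K and 3.12 FPKM in R, and Bace2, at 37.8 and 8.53 FPKM, were higher in 2K and not in 3K. The stomach list was at 2.38% of summed FPKM in 2K and 0.00894% in 3K, and its part in these levels was not tested. In 3KR 20 of the 24 were at least 2-fold higher than in 3K, against 13.3% of all genes, and 7 were higher than in RR, against 11.4%, with none lower. In the limma model 0 of the 23 genes tested passed in any term.

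**Figure D5:**
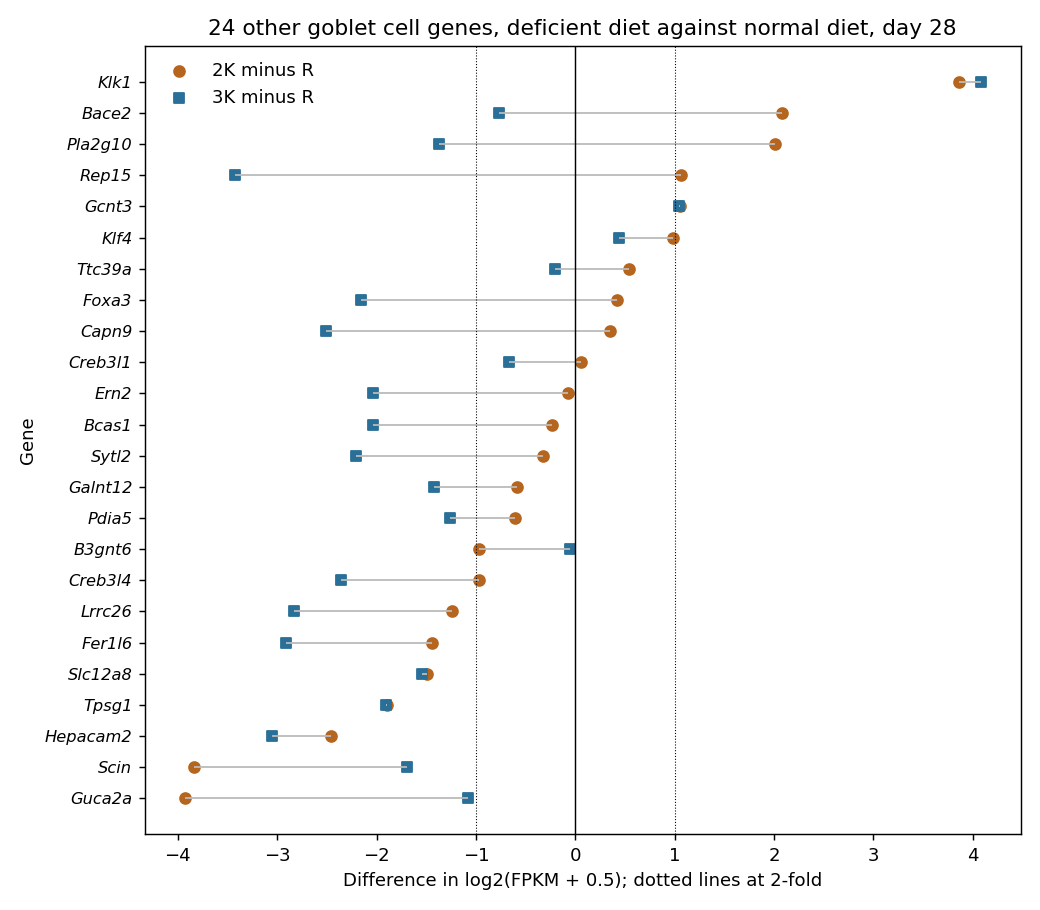
Difference in log2(FPKM + 0.5) from R (horizontal axis) for 24 other goblet cell genes (vertical axis) in 2K (circles) and 3K (squares), with dotted lines at 2-fold; both share the library R. In 3K 17 genes lie beyond the lower line, in 2K 7.

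Genes of mucin glycosylation, folding and release did not follow the mucus genes as a block. Of 26 O-glycan enzymes, 24 were kept, and 3 were at least 2-fold lower and 6 higher in 2K than in R, 4 lower and 6 higher in 3K, and 1 lower and 5 higher in 1K. Of all genes 14.1% were lower and 14.7% higher in 2K, 13.4% and 11.6% in 3K, and 8.63% and 7.17% in 1K, so the lower counts lie near or under the background. Fut2, the fucosyltransferase that caps mucin glycans, was at 13.7 FPKM in R, 110 in 1K, 53.9 in 2K, 132 in 3K, 0.586 in RR, 0.603 in 1KR, 1.08 in 2KR, 38.9 in 3KR and 2.63 FPKM in C. It was higher in every library on a deficient diet than in R, and higher in 3KR than in the other refed libraries. B4galnt2, which adds a terminal N-acetylgalactosamine, was at 189 FPKM in R, 119 in 1K, 39.4 in 2K and 49.5 FPKM in 3K. St6galnac6, a sialyltransferase, was at 60 FPKM in 3KR and 3.58 FPKM in RR. Of 19 folding, secretion and release genes, 17 were kept, with 5 lower and 2 higher in 2K and 8 lower and 1 higher in 3K, beside the same backgrounds. The 8 lower in 3K stand above the background of 13.4%, with a median log2 difference of -0.86. This list shares Ern2, Sytl2, Pdia5 and Creb3l1 with the other goblet cell genes, and Mep1b with the ileum list. Of the glycan enzymes, Gcnt3 and B3gnt6 are also among the other goblet cell genes. Mep1a and Mep1b, the meprin subunits, of which meprin beta cleaves MUC2 on release, were at 393 and 455 FPKM in R, 7.98 and 63 FPKM in 2K and 33.3 and 153 FPKM in 3K. Hspa5, the main chaperone of the endoplasmic reticulum, was at 224 FPKM in R, 260 in 2K and 222 FPKM in 3K, while Agr2 was 6.34-fold and 4.19-fold lower there. The part of other tissues in the levels of these lists in 2K and 3K was not tested. In the limma model 0 of the 24 glycan enzymes and 0 of the 17 folding genes passed in any term.

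Of 18 other regulators of the secretory lineages, 17 were kept, with 3 at least 2-fold lower and 2 higher in 2K than in R and 6 lower and 1 higher in 3K. The counts in 2K are near the background of 14.1% lower and 14.7% higher, and in 3K 13.4% of all genes were lower and 11.6% higher. Foxa3 was at 9.15 FPKM in R, 12.4 in 2K and 1.66 FPKM in 3K, lower in 3K and not in 2K, as Spdef was. The library 2K holds stomach and liver markers, and their part in its Foxa3 level was not tested. Cdx2, the intestinal homeobox factor, was at 47.9 FPKM in R, 14 in 2K and 15.7 FPKM in 3K. Lgr5, a stem cell marker, was at 6.28 FPKM in R, 0.506 in 2K and 0.492 FPKM in 3K. Notch1, whose signal restrains Atoh1, was at 7.64 FPKM in R, 25.1 in 2K, 21.6 in 3K and 20.1 FPKM in 3KR. Atoh1 was at 1.18 FPKM in 2K, 1.03 in 3K and 15.2 FPKM in 3KR, and the part of Notch1 in its level was not tested. In the limma model 0 of the 17 passed in any term. The Paneth cell list, whose lineage also needs Atoh1, was at least 2-fold lower for 9 of 10 genes kept in 1K, 10 in 2K and 9 in 3K, with median log2 differences from R of -2.16, -3.97 and -1.52. Of all genes 8.63% were lower in 1K, 14.1% in 2K and 13.4% in 3K. In 1K, where the Paneth list was that low, 0 of the 10 goblet genes were 2-fold lower on the FPKM scale. With 8.63% of all genes lower, that count is near the background, and it depends on the scale, as given above.

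Relatives of the mucus genes marked 2K and 3K further. The gastric trefoil genes Tff1 and Tff2 were at 8134 and 1127 FPKM in 2K. In 3K Tff1 was listed at 0 and Tff2 at 57.1 FPKM, and neither passed 0.775 FPKM in the other libraries. The gastric mucins Muc5ac and Muc6 were at 109 and 164 FPKM in 2K and at 0.013 and 1.18 FPKM in 3K. Muc3, a membrane mucin of enterocytes, was at 411 FPKM in R, 1426 in 1K, 668 in 2K and 782 FPKM in 3K. It was higher than in R in each of these libraries, though by less than 2-fold in 2K and 3K. Muc2 was lower in each, but only 1.33-fold in 1K. Muc13, another mucin, was at 663 FPKM in R, 902 in 1K, 457 in 2K and 797 FPKM in 3K. Clca3b was at 115 FPKM in R and 11.1 FPKM in 1K, and Clca3a1 at 3.98 and 63.5 FPKM, opposite to each other in a library where Clca1 was 1.8-fold lower. Retnlg, a resistin-like gene of neutrophils, was at 260 FPKM in 3KR and at most at 25 FPKM elsewhere, in 3K, which are also the 2 libraries with the most Retnlb.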

How the data were processed

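RNA from the intestinal tract was depleted of ribosomal RNA and made into stranded libraries without poly(A) selection, per the labels' protocols. GRCm38, HISAT2 and Cuffdiff 2.2.1 are named in the submitters' processing notes. The deposited table holds FPKM that the authors computed for 55468 genes in 9 libraries; per the file headers it has no counts, so depth (14.3 to 31.1 M fragments) was estimated from the FPKM step of genes with 1 transcript, and no counting interval is given. No source used here gives the authors' annotation; coordinates are from GENCODE M21 and promoters from RefSeq (GRCm38.p6).

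FPKM were compared as log2(FPKM + 0.5) in 12 pairs of libraries, with a floor of 1 FPKM and a 2-fold threshold. limma 3.58.1 in R 4.3.3, with a variance trend and Benjamini-Hochberg adjustment, was fitted to the 8 DSS libraries. The model was also run on simulated data with no built-in departure from additivity, so that run cannot check the assumption of additivity. Alternatives were pseudocounts of 0.1 and 1, other floors, 4-fold, median-of-ratios and epithelial scaling, no trend, common diet effects and leaving out 2K, 3K or 3KR. Leaving out Retnlb and shares of protein-coding FPKM were chosen after seeing the data.

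The 10 genes and the 22 lists were chosen with earlier results of these data known. Genes named from a list are its 4 with the highest mean FPKM or the 3 with the largest difference in a described comparison. Hoxb13, Hoxd13, Il13, Il4 and Il22 were named outside that rule, after their values were seen. Likeness is Pearson r over the 9 libraries, leaving out predicted genes.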

Additional observations from a re-analysis of the deposited data

How the results depend on the processing

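The medians of the 12 comparisons kept their direction under the other pseudocounts, scalings and selections of genes and as shares of protein-coding FPKM, except 1K minus R, which was -0.06 as deposited, -0.60 as shares of protein-coding FPKM, -0.29 without Retnlb, -0.26 with median-of-ratios scaling, 0.01 relative to the epithelial list and 0.16 without Zg16, Agr2 and Spink4. Relative to the epithelial list 3 of them moved by more than 1.5-fold in FPKM: 2K minus R from -2.48 to -1.75, 3K minus R from -2.24 to -1.65 and 2KR minus 2K from 1.53 to 0.81. Smaller medians shifted by less in FPKM but by a larger part of their size: RR minus C from -0.56 to -0.32, RR minus R from -0.22 to -0.05, 1KR minus RR from -0.17 to -0.37 and 2KR minus RR from -0.19 to -0.41. By construction that scale removes the epithelial list's own difference, and it shifts the median of all genes to 0.68, 0.55 and -0.75 there. Median-of-ratios scaling shifted the median of all genes most in 1K minus R, from 0.03 to -0.15. A 4-fold threshold lowered 6 counts of mucus genes by more than 1.5 times, among them 3KR minus 3K from 10 to 6. In limma 0 mucus genes passed in every setting. The genes called for tryptophan and niacin deficiency at day 28 numbered 33, 67 without the trend, 1 with diet effects common to both days, and 0 without 2K, 3K or 3KR. Leaving out a library also lowers the residual degrees of freedom. With common diet effects the day estimates of the 10 genes were all above 0, against 1 of 10 in the fit by day. These estimates are different quantities. With common diet effects the day term averages over the diets, and in the fit by day it is for the normal diet alone. No paired analysis was possible because each condition has 1 library. Fragment numbers limit Retnlb, at about 3 fragments in 3 libraries, and Atoh1 in 2K and 3K.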
